A study of Mus musculus with 8 samples.

Results

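The genes of G2 and mitosis, 60 in number, were read in CD8 T cells sorted from mouse liver into a CD11c+ and a CD11c- subset. They are a list of known mitotic genes matched by symbol: the cyclins and kinase that start mitosis, the checkpoint, the motors and microtubule proteins of the spindle, the kinetochore, cytokinesis and the condensins. All 60 symbols were among the 22609 gene rows of the count files, and all 60 were among the 10073 genes with enough reads to be tested. No member was called between the subsets, but 54 of 60 had the higher mean in CD11c+ cells (90.0%, against 51.7% of all tested genes). The median difference over the 60 was 0.22 on the log2 scale. The members belong to the same programme and were read in the same libraries, so they are not 60 separate observations. Without the 3 libraries in which the fewest genes were detected, 45 of 60 had a log2 difference above 0, beside 49.6% of all genes. The median was then 0.10.

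Both subsets came from male C57BL/6J mice, 6 weeks old, given an agonist antibody to CD137 (a costimulatory receptor of activated T cells) on days 0, 3 and 6, with livers taken on day 8. Both subsets were sorted as live cells with CD45, TCRβ and CD8α and without MHCII, NK1.1 and CD4. Within these, KLRG1+CD127- cells, the surface profile of effector cells, were split by surface CD11c. Every mouse received the antibody, so the libraries hold no untreated group. There were 4 libraries per subset. Nothing in the labels ties them to separate mice, so a p-value here reflects the spread among libraries, part of which may be technical.

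A cell enters mitosis when the kinase CDK1, bound to cyclin B, is switched on by CDC25 phosphatases. It leaves mitosis when the anaphase-promoting complex marks cyclin B and securin for destruction. Most transcripts of this programme are made in G2, when the factors B-MYB and FOXM1 join the MuvB complex on a promoter element called the CHR. In resting cells the same complex, with a pocket protein, holds these genes down. In T cells the programme is used as a readout of proliferation, with Ki-67, the product of Mki67, as its best known protein.

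The promoter letters were examined because the members share this mode of control as background. RefSeq promoters (build GRCm38.p6, 250 bases before to 50 bases after the start, 300 bases in all) were found for 51 of the 60 members. The CHR core TTTGAA was searched on both strands (on the other strand it reads TTCAAA), as were its variant TTTAAA and the CCAAT box, bound by the factor NF-Y (on the other strand ATTGG). A promoter of 35 of 51 members (68.6%) held TTTGAA, against 5466 of 27025 genes in the table (20.2%). The variant TTTAAA was in 11 of 51 (21.6%) against 14.9% of genes. CCAAT was in 36 of 51 (70.6%) against 41.1%, and TTTGAA with CCAAT in 1 promoter was in 29 of 51 (56.9%) against 7.97%. A match is a string of letters and not a measured site. TTTAAA reads the same on both strands, and neighbouring matches may share end bases. The 35 members with TTTGAA had a median log2 difference of 0.22, and the 16 without it of 0.20. For CCAAT the order was the other way, 0.20 with it and 0.24 without, as it was for both strings in 1 promoter, 0.18 against 0.22.

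Below are the 130 bases that end just before the start of 9 members, written 5′ to 3′ on the gene's strand, with the CHR letters and CCAAT letters of either strand in capitals. The 9 were chosen for display. The first 5 are members with an unadjusted p under 0.05 that hold TTTGAA or its other strand in these bases. Members with such a p but without it before the start, such as Kif20b, Kif23 and Cenpe, are not shown. The stretches are thus no comparison of members by their p. Cdk1, Cdc20 and Kif11 are members near or under the list's median, and Ccnb1 is shown since it has the TTTAAA variant.
Top2a, chr11:99024190-99024319, minus strand: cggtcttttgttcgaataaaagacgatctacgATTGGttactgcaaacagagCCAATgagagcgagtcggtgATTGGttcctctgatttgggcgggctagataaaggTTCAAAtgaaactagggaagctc
Mki67, chr7:135716380-135716509, minus strand: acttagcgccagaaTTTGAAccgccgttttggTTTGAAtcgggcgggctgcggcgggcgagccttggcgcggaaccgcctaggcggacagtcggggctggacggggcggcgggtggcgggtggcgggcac
Kif22, chr7:127042421-127042550, minus strand: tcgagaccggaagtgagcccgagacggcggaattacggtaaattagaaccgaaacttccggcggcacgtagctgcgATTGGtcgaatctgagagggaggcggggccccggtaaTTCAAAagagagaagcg
Ncapg2, chr12:116405306-116405435, plus strand: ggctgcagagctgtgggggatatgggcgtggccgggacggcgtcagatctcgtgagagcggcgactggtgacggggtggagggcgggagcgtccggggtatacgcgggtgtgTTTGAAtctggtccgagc
Prc1, chr7:80294346-80294475, plus strand: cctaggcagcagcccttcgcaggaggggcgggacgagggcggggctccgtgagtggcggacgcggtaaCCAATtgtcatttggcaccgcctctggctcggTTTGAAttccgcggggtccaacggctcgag
Cdk1, chr10:69352913-69353042, minus strand: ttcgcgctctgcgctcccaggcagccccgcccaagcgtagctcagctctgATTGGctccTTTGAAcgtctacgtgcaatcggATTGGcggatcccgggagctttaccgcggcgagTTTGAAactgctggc
Cdc20, chr4:118437344-118437473, minus strand: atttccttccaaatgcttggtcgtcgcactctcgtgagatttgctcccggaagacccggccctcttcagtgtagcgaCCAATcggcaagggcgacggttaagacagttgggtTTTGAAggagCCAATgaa
Kif11, chr19:37376252-37376381, plus strand: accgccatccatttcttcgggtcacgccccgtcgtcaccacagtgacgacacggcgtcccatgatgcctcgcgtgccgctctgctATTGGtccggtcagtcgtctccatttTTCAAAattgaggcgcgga
Ccnb1, chr13:100786487-100786616, minus strand: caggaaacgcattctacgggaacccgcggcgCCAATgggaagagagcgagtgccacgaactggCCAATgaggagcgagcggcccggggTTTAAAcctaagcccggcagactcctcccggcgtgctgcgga
TTTGAA or its other strand is in capitals both in members with a log2 difference of 0.30 to 0.44 (Top2a, Mki67, Kif22, Ncapg2, Prc1) and in members at 0.06 to 0.17 (Kif11, Cdk1, Cdc20). In Mki67 the matches lie at the far end of the stretch, and Mki67 and Ncapg2 show no CCAAT letters in it. The Mki67 promoter does hold CCAAT letters of either strand just upstream of the stretch, at -188, -166 and -141 from the start.

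**Figure D1:**
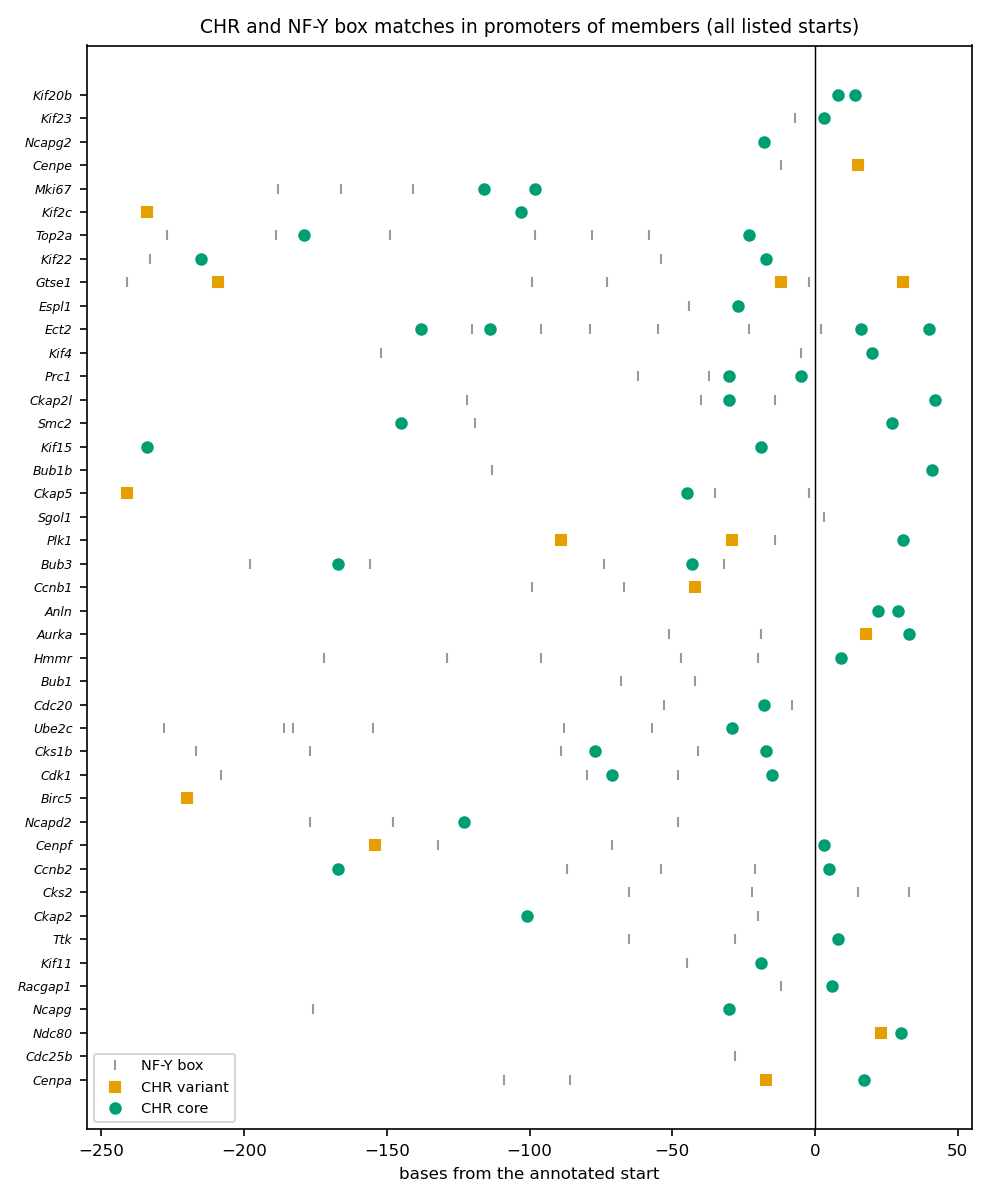
Positions of letter matches on either strand in the RefSeq promoters of members with at least 1 match, against the distance in bases from the annotated start (vertical line), with members ordered from the highest to the lowest log2 difference. Circles mark the CHR core TTTGAA, squares its variant TTTAAA and ticks the CCAAT letters (the box bound by NF-Y), over all listed starts of a gene, and circles are found from the top of the order (Kif20b, log2 difference 0.57) to its bottom (Cenpa, -0.11).

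Read depth was 5090345 to 7093163 gene reads per library, and the members took 61611 to 91765 of them. Levels are given in CPM, the usual scaled count, here gene reads scaled by library size and TMM factors. The gate's own genes were present in every library: Cd8a at 1021 to 1235 CPM and Cd3e at 864 to 1020. Genes with at least 1 read numbered from 10482 to 12581, and the 3 lowest libraries were CD11c+ replicates 1 and 2 and CD11c- replicate 1. Means are given with the SD over the 4 libraries of a subset, and library values are listed in the order of replicates 1 to 4.

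As a whole, the programme was read at a somewhat higher level in the CD11c+ libraries. The summed level of the 60 members was 14603, 14324, 12908 and 13599 CPM in the CD11c+ libraries and 11422, 12829, 11973 and 12412 CPM in the CD11c- libraries. The means were 13859 CPM ± 762 and 12159 ± 603, a 1.14-fold difference, and the lowest CD11c+ library (12908) lay just above the highest CD11c- library (12829). This order rests on the TMM factors: as a share of gene reads, the members were at 1.28% in the former library and 1.29% in the latter, so that the subsets overlapped. The sum is carried by the abundant members. In bulk RNA, a larger share of cells in G2 or mitosis and more mitotic transcript per cell cannot be told apart.

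A score that weights members equally, the mean over the 60 of log2(CPM + 1), was 7.46, 7.46, 7.27 and 7.39 in the CD11c+ libraries and 7.13, 7.29, 7.17 and 7.20 in the CD11c- libraries. The subsets overlap on this score, since CD11c+ replicate 3 (7.27) lies under CD11c- replicate 2 (7.29). The mean difference was 0.20, with a pooled SD within subsets of 0.0816. No p is given for the score, as the members were chosen with earlier results known. CD11c+ replicate 1 held the highest value of 23 members and replicate 2 of 16, while CD11c- replicate 1 held the lowest value of 23. The same 3 libraries had the lowest numbers of detected genes. Without them the score difference was 0.10 and the median member difference 0.10. CD11c+ replicates 1 and 2 also had the highest scores of their subset, and CD11c- replicate 1 the lowest of its own. Leaving them out therefore had to narrow the gap, whatever the part of gene detection, which was not tested.

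**Figure D2:**
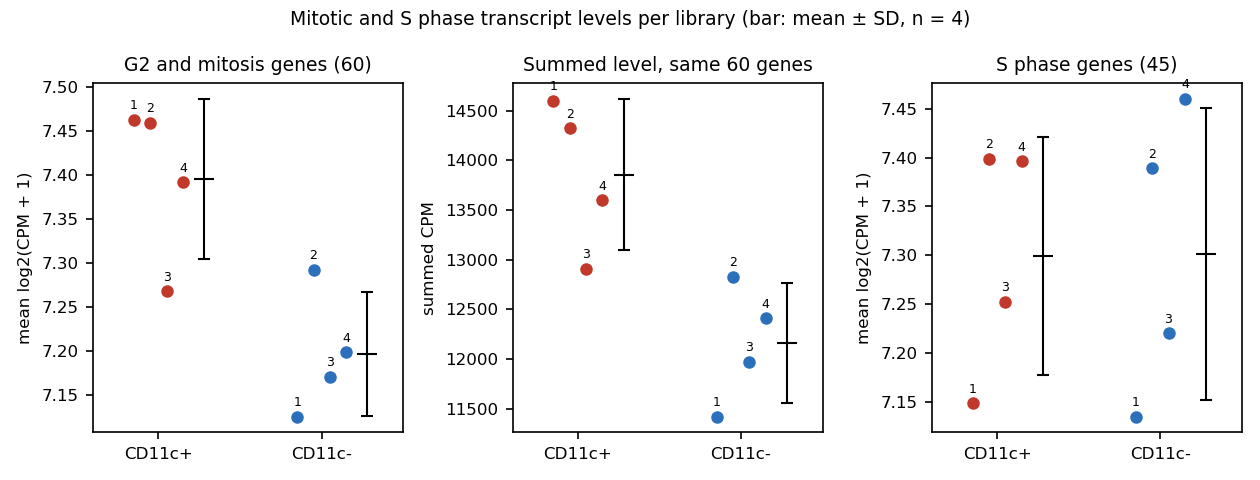
Measures in each of the 8 libraries, with points for libraries, numbers for replicates and bars for the subset mean and SD (n = 4): the score of the 60 members and that of the 45 replication and S phase genes, both as the mean of log2(CPM + 1), and the summed CPM of the 60 members. The mitotic score averages 7.40 in CD11c+ and 7.20 in CD11c- libraries with 1 overlap, the summed level does not overlap after TMM scaling (it does as a share of gene reads), and the S phase score averages 7.30 in both; axes do not start at 0.

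Gene by gene, 0 of 60 members passed an adjusted p of 0.05 in edgeR, limma voom or DESeq2, where edgeR called 5 of 10073 genes (0.0496%). The lowest adjusted p of a member, from edgeR's quasi-likelihood test with Benjamini-Hochberg adjustment over all tested genes, was 0.668. At an unadjusted p under 0.05, 11 of 60 members (18.3%) were higher in CD11c+ cells, beside 2.43% of all genes, and 0 were lower, beside 2.26%. A log2 difference above 0 was seen in 54 of 60 (90.0%), beside 51.7% of all genes, and the median of all genes was 0.01. Members of a shared programme can move together within a library, so such counts are not of independent genes. In 3 members all CD11c+ libraries lay above all CD11c- libraries, beside 1.6% of all genes, and in 0 all lay below, beside 1.85%. The 11 members became 6 without CD11c+ replicate 1, 3 without CD11c+ replicate 2, 3 without CD11c- replicate 1, 7 without CD11c- replicate 3 and 7 without CD11c- replicate 4. They became 18 without CD11c+ replicate 3. With 1 library left out, the share of all genes higher at such a p was 1.81% to 2.84%. Without the 3 libraries of fewest detected genes the members became 3, beside 3.37% of all genes. In that run, which has fewer libraries per subset, 45 of 60 differences were above 0, beside 49.6% of all genes.

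**Figure D3:**
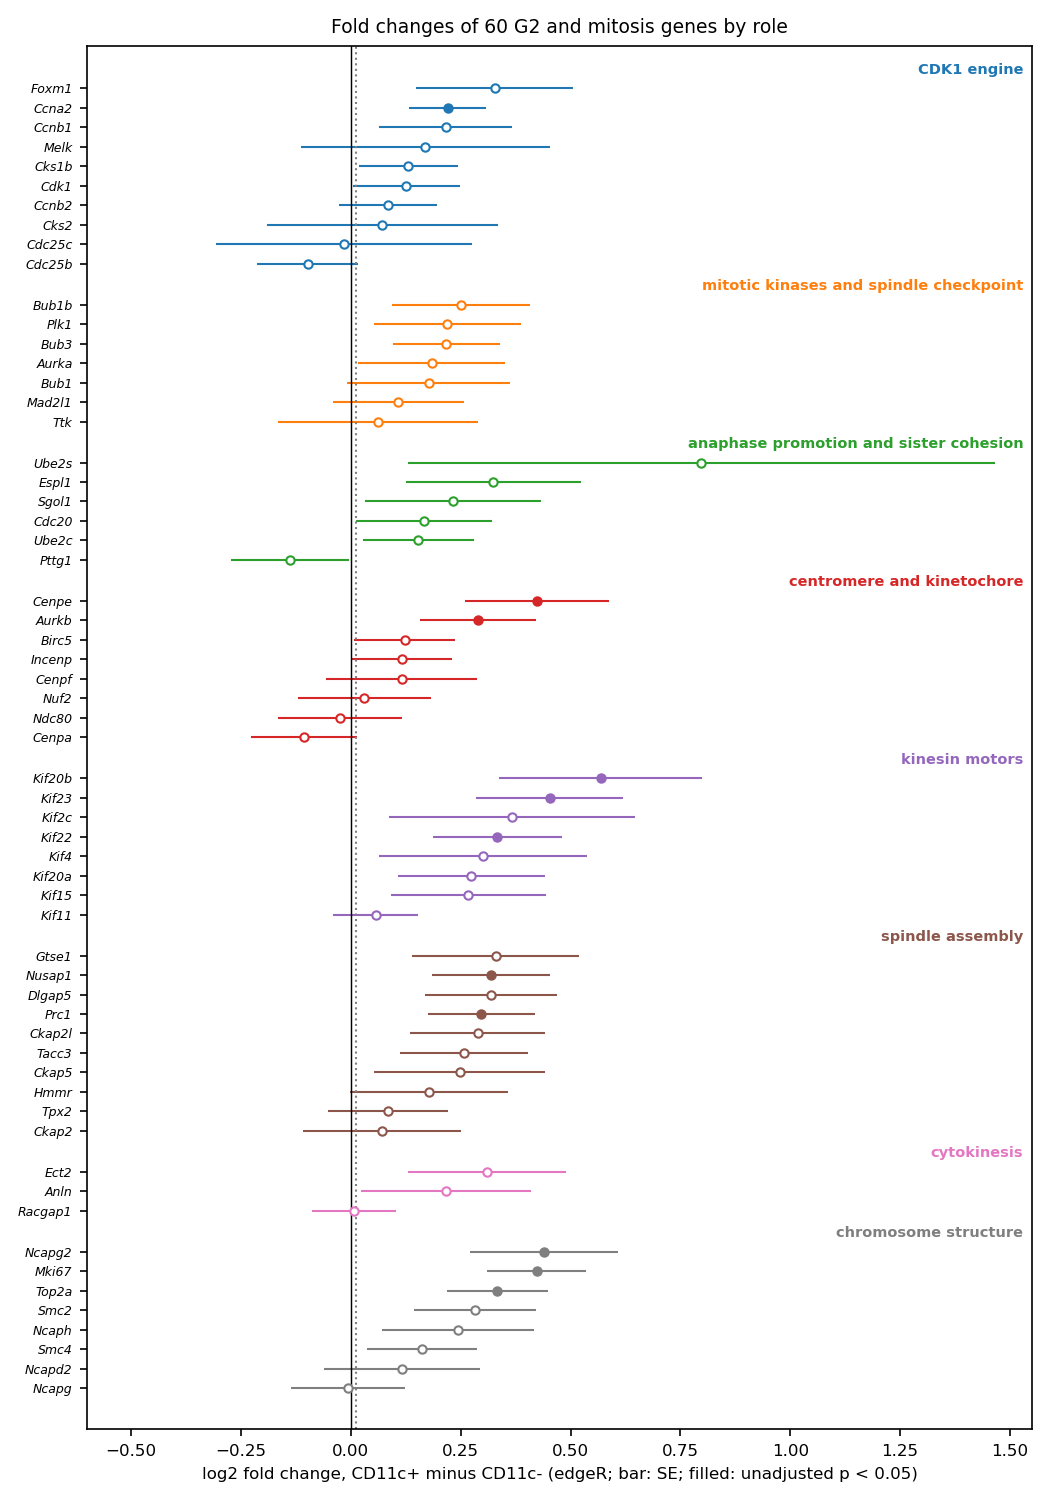
Log2 difference of each of the 60 members, CD11c+ minus CD11c-, with bars for its standard error, grouped and coloured by role; filled points have an unadjusted p under 0.05 and the dotted line is the median of all genes (0.01). Values run from -0.14 (Pttg1) to 0.80 (Ube2s), and 54 of 60 points lie to the right of 0.

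The engine that drives entry into mitosis, 10 members, showed small differences: 8 of 10 were above 0, 1 had an unadjusted p under 0.05, and the median was 0.13. Ccna2, cyclin A2, which works with CDK2 in S phase and CDK1 in G2, was read at 679.9, 688, 635 and 671 CPM in CD11c+ and 558, 589, 603 and 546 CPM in CD11c- libraries. All CD11c+ libraries were above all CD11c- libraries, at a mean of 669 ± 23.4 against 574 ± 26.4, a log2 difference of 0.22 (SE 0.09, unadjusted p 0.026, adjusted p 0.991). Ccnb1, cyclin B1, the partner of CDK1, was read at 88.2, 87.7, 76.6 and 94.9 CPM against 69.7, 83.5, 73.4 and 72.5 CPM. Only CD11c+ replicate 3 fell within the CD11c- range, and the log2 difference was 0.22 (SE 0.15, adjusted p 0.991). Cdk1, the kinase itself, was read at 312, 268, 299 and 341 CPM against 236, 294, 278 and 309.6 CPM, so the subsets overlapped. Its log2 difference of 0.13 (SE 0.12) was 0.06 without CD11c+ replicate 4 and 0.04 without CD11c- replicate 1. It was 0.18 without CD11c+ replicate 2 and 0.17 without CD11c- replicate 4.

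Foxm1, which encodes the transcription factor that acts with MuvB, was read at 84.5, 72, 82.5 and 75.3 CPM in CD11c+ and 78.8, 50.7, 63.3 and 57.9 CPM in CD11c- libraries. Of the CD11c- libraries, replicate 1 reached into the CD11c+ range, and the log2 difference was 0.33 (SE 0.18, adjusted p 0.991). Cdc25b, a phosphatase that starts the activation of CDK1, was the reverse in its means: 576, 484, 516 and 566 CPM against 502, 511, 650.2 and 629 CPM, a log2 difference of -0.10 (SE 0.12), which ran from -0.17 (without CD11c- replicate 1) to -0.04 (without CD11c- replicate 3). The related phosphatase Cdc25c was at -0.02 (SE 0.29). The CDK1-binding subunits Cks1b and Cks2 were at 0.13 (SE 0.11) and 0.07 (SE 0.26), Ccnb2, cyclin B2, at 0.09 (SE 0.11) and the kinase Melk at 0.17 (SE 0.28). Per kilobase of exon, Ccnb2 was the most abundant member at 290.02 RPKM (reads scaled by exon length and library size, mean of the 8 libraries), followed by Cks1b at 222, and Ccna2 stood at 171. Ccnb1, Ccnb2 and Cks1b, like Kif22 and Kif4, have annotated copies that bear their names, which makes their absolute levels uncertain. Copies under other names were not looked for, so the levels of other members may be uncertain too.

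The mitotic kinases and the spindle checkpoint, which holds anaphase until every kinetochore is attached, had 7 of 7 members above 0 and 0 with an unadjusted p under 0.05, with a median of 0.18. Plk1, polo-like kinase, was read at 243, 303, 204 and 298 CPM in CD11c+ and 182, 245, 196 and 276 CPM in CD11c- libraries. The ranges overlapped over most of their length, and the log2 difference was 0.22 (SE 0.17, adjusted p 0.991). Bub3, a checkpoint protein that brings BUB1 and BUBR1 to kinetochores, was read at 479, 397, 429.7 and 388 CPM against 306, 372, 358 and 421 CPM. CD11c- replicate 4 lay above 2 CD11c+ libraries, and the log2 difference was 0.22 (SE 0.12, adjusted p 0.991). Without CD11c- replicate 1, low in both genes, Plk1 was at 0.12 and Bub3 at 0.13. Leaving out CD11c+ replicate 2 put Plk1 at 0.13, and leaving out CD11c+ replicate 4 put it at 0.14. Without CD11c- replicate 4 both rose, Plk1 to 0.32 and Bub3 to 0.28. Without the 3 libraries of fewest detected genes Plk1 was at 0.06 and Bub3 at 0.08. The other 5 ran from Ttk, the checkpoint kinase MPS1, at 0.06 (SE 0.23) to Bub1b, which encodes BUBR1, at 0.25 (SE 0.16).

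Genes of anaphase and sister cohesion held both ends of the list, with 5 of 6 above 0, 0 at an unadjusted p under 0.05 and a median of 0.20. Ube2s, the ubiquitin-conjugating enzyme that lengthens chains for the anaphase-promoting complex, was read at 4.1, 3.14, 3.02 and 2.96 CPM in CD11c+ and 2.04, 2.1, 1.13 and 2.29 CPM in CD11c- libraries. All CD11c+ libraries were above all CD11c- libraries, yet at as few as 6 reads per library the log2 difference of 0.80 had an SE of 0.67 (adjusted p 0.991). Per kilobase it was the lowest member, at 2.10 RPKM. Pttg1, securin, which inhibits separase, was read at 101, 93.4, 113 and 117 CPM against 112, 120.4, 116 and 119 CPM, the lowest log2 difference of the list at -0.14 (SE 0.13, adjusted p 0.991). The CD11c- libraries lay close together at 117 ± 3.85 CPM, and 2 CD11c+ libraries were at the same level. The Pttg1 difference was -0.09 without CD11c+ replicate 2, -0.20 without CD11c+ replicate 4 and -0.05 without the 3 libraries of fewest detected genes. Espl1, separase itself, was at 0.32 (SE 0.20).

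Cdc20, which activates the anaphase-promoting complex, was read at 271, 317, 282 and 357 CPM in CD11c+ and 224, 286, 234 and 351 CPM in CD11c- libraries, a log2 difference of 0.17 (SE 0.15, adjusted p 0.991). In both subsets replicates 2 and 4 held the highest levels. The difference was 0.07 without CD11c+ replicate 4 or without CD11c- replicate 1, 0.09 without CD11c- replicate 3 and 0.30 without CD11c- replicate 4. Ube2c, the enzyme that starts the chains, was at 0.15 (SE 0.13), and Sgol1, shugoshin, which protects centromeric cohesion, at 0.23 (SE 0.20).

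At the centromere and kinetochore, where chromosomes meet spindle microtubules, 6 of 8 members were above 0, 2 had an unadjusted p under 0.05 and the median was 0.12. Cenpe, a kinetochore motor that carries chromosomes to the spindle equator, was read at 125, 176, 149.9 and 112 CPM in CD11c+ and 91, 118, 107 and 104 CPM in CD11c- libraries. Only CD11c- replicate 2 reached the CD11c+ range, and the log2 difference was 0.42 (SE 0.16, unadjusted p 0.0233, adjusted p 0.99). Aurkb, the kinase of the chromosomal passenger complex, was read at 349.6, 289, 251 and 294 CPM against 220.4, 247, 220.2 and 279.7 CPM, a log2 difference of 0.29 (SE 0.13, unadjusted p 0.0471, adjusted p 0.991). CD11c- replicate 4 lay above CD11c+ replicate 3. Without the 3 libraries of fewest detected genes Aurkb was at 0.12 and Cenpe at 0.25.

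The partners of Aurora B differed less: Incenp, its scaffold, was at 0.12 (SE 0.11), and Birc5, survivin, at 0.12 (SE 0.11). Birc5 was read at 521, 402, 502 and 482 CPM in CD11c+ and 387, 476, 421 and 467 CPM in CD11c- libraries, with overlap, and its difference was 0.08 without CD11c+ replicate 1, 0.19 without CD11c+ replicate 2 and 0.06 without CD11c- replicate 1. Cenpa, the histone H3 variant that marks centromeres, was read at 270.2, 264, 334 and 300.1 CPM against 339, 293, 282 and 345 CPM, a log2 difference of -0.11 (SE 0.12). Its CD11c+ replicates 1 and 2 lay under every CD11c- library. The Cenpa difference was -0.07 without CD11c+ replicate 2, -0.18 without CD11c+ replicate 3, -0.17 without CD11c- replicate 3 and 0.04 without the 3 libraries of fewest detected genes. Ndc80, which with Nuf2 binds microtubules at the kinetochore, was level at 95.8, 87, 82 and 92.6 CPM against 95.8, 95.9, 85.2 and 86.5 CPM (log2 difference -0.02, SE 0.14, and from -0.06 to 0.01 with each library left out), and Nuf2 was at 0.03 (SE 0.15). The large kinetochore protein gene Cenpf was at 0.12 (SE 0.17).

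The kinesin motors, which move along microtubules to build the spindle and divide the cell, had the highest median of the roles, 0.32, with 8 of 8 above 0 and 3 with an unadjusted p under 0.05. Kif20b, a motor needed for cytokinesis, was read at 90.4, 78.4, 64.2 and 47 CPM in CD11c+ and 46.7, 52.8, 53.9 and 35.2 CPM in CD11c- libraries, a log2 difference of 0.57 (SE 0.23, unadjusted p 0.0294, adjusted p 0.991). Kif23, the motor of centralspindlin, was read at 174, 167, 125 and 119 CPM against 88.2, 122, 111 and 106 CPM, a log2 difference of 0.45 (SE 0.17, unadjusted p 0.0185, adjusted p 0.99). In both, CD11c+ replicates 1 and 2 were high and replicates 3 and 4 near or within the CD11c- range.

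Kif22, a motor that pushes chromosome arms, had the same split, at 398, 387, 287 and 302 CPM against 231, 292, 248 and 321 CPM, a log2 difference of 0.33 (SE 0.15, unadjusted p 0.0418, adjusted p 0.991). Kif2c, which takes microtubules apart at centromeres, was read at 107, 136, 86.1 and 97.7 CPM against 37.3, 100, 81.1 and 112 CPM. Its log2 difference of 0.37 (SE 0.28, adjusted p 0.991) was 0.12 without the low CD11c- replicate 1 and 0.22 without CD11c+ replicate 2. It was 0.54 without CD11c- replicate 4. The score of the 8 motors was 7.48 and 7.56 in CD11c+ replicates 1 and 2, and 7.06 and 7.18 in replicates 3 and 4, against 6.80 to 7.13 in CD11c- libraries. Without the 3 libraries of fewest detected genes the log2 difference was 0.22 for Kif20b, 0.10 for Kif23, 0.03 for Kif22 and -0.10 for Kif2c. Kif11, the motor that pushes spindle poles apart, was the least different at 0.06 (SE 0.10), and Kif4, Kif15 and Kif20a lay between 0.27 and 0.30. Racgap1, the partner of Kif23 in centralspindlin, was at 0.01 (SE 0.10), and the cytokinesis genes Anln and Ect2 were at 0.22 (SE 0.19) and 0.31 (SE 0.18).

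**Figure D4:**
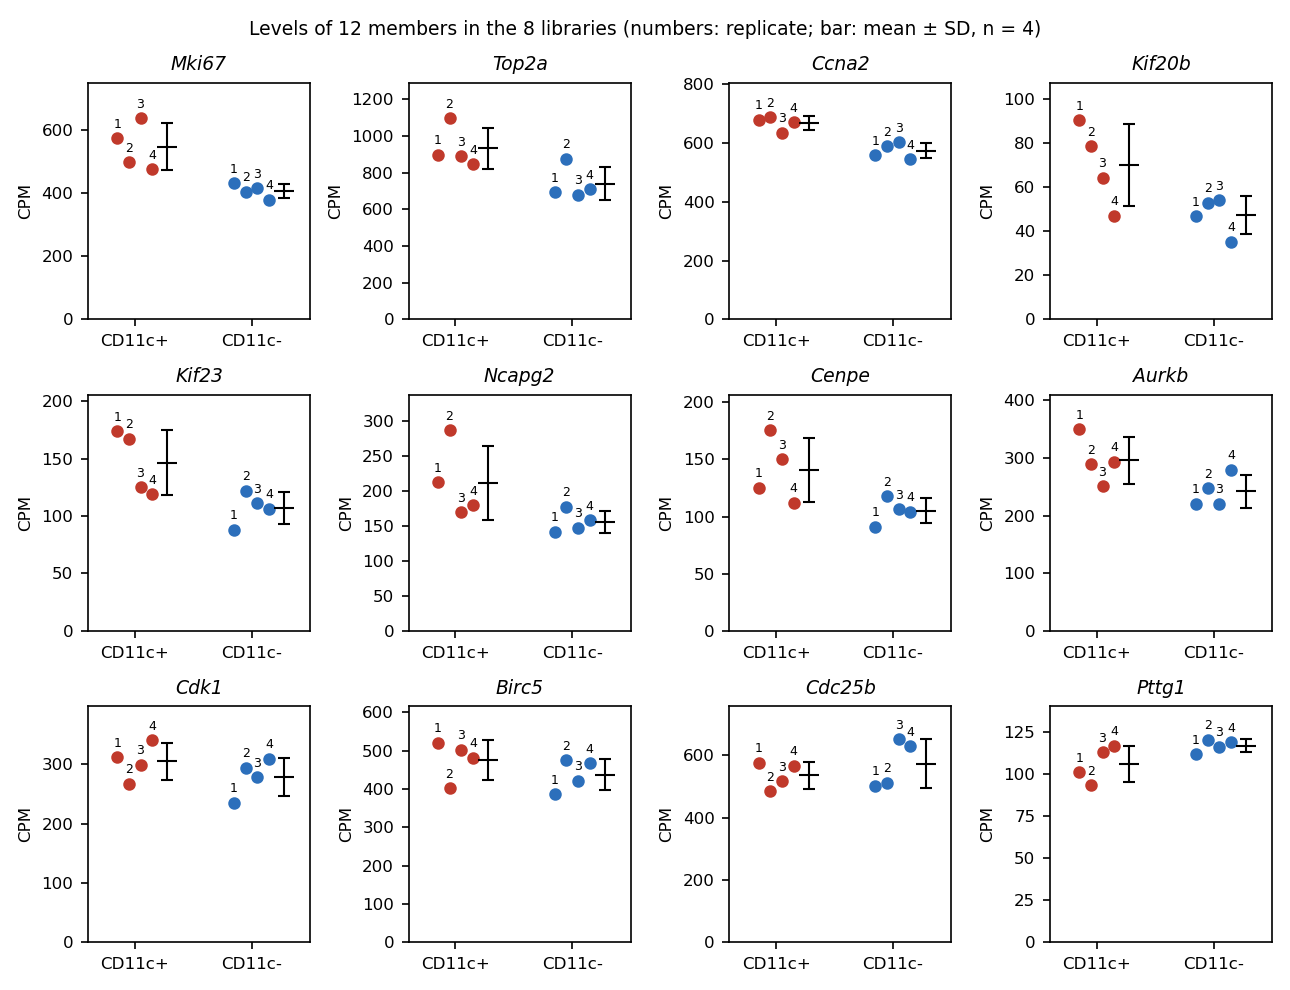
CPM of 12 members named in the text in each library, with numbers for replicates and bars for the mean and SD of each subset (n = 4). In Mki67 the CD11c+ libraries, 477 to 639 CPM, lie above the CD11c- libraries, 380.1 to 432 CPM, and in Cdc25b and Pttg1 the CD11c- mean is the higher one.

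Proteins that nucleate, bundle and crosslink spindle microtubules were above 0 in 10 of 10, with 2 at an unadjusted p under 0.05 and a median of 0.27. Nusap1, which bundles microtubules near chromosomes, was read at 279.7, 235, 229.5 and 219 CPM in CD11c+ and 175, 227, 201 and 169 CPM in CD11c- libraries. CD11c- replicate 2 was the only one within the CD11c+ range, and the log2 difference was 0.32 (SE 0.13, unadjusted p 0.0346, adjusted p 0.991). Prc1, which crosslinks the midzone microtubules of anaphase, was read at 240.1, 237, 188 and 238 CPM against 174, 192, 179 and 189 CPM, a log2 difference of 0.30 (SE 0.12, unadjusted p 0.0302, adjusted p 0.991). Here CD11c+ replicates 1, 2 and 4 were nearly equal, and replicate 3 was at the CD11c- level. Without the 3 libraries of fewest detected genes Nusap1 was at 0.16 and Prc1 at 0.18. Gtse1, Dlgap5, Ckap2l, Tacc3 and Ckap5 lay between 0.25 and 0.33, Hmmr was at 0.18 (SE 0.18), and Tpx2, which activates Aurora A, was at 0.08 (SE 0.14), with Ckap2 at 0.07 (SE 0.18).

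Chromosome structure, with 7 of 8 above 0, 3 at an unadjusted p under 0.05 and a median of 0.26, held the member with the lowest p. Mki67, whose protein Ki-67 coats mitotic chromosomes and keeps them apart, was read at 575, 498, 639 and 477 CPM in CD11c+ and 432, 405, 417 and 380.1 CPM in CD11c- libraries. All CD11c+ libraries were above all CD11c- libraries, at 548 ± 74.3 against 409 ± 21.8 CPM, 1.34-fold. The log2 difference was 0.42 (SE 0.11, unadjusted p 0.00265), with an adjusted p of 0.668 in edgeR, 0.45 in limma voom and 0.0584 in DESeq2. Its log2 difference ran from 0.33 to 0.47 as libraries were left out in turn, and it was 0.47 without the 3 libraries of fewest detected genes. CD11c+ replicate 3, the library with the lowest score of its subset, held the highest Mki67 value.

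Top2a, topoisomerase II alpha, which untangles sister chromatids, was read at 897, 1098, 888 and 845 CPM in CD11c+ and 694, 875, 681 and 708 CPM in CD11c- libraries, a log2 difference of 0.33 (SE 0.11, unadjusted p 0.0123, adjusted p 0.977). CD11c- replicate 2 alone reached into the CD11c+ range. Ncapg2, a subunit of condensin II, was read at 212, 286, 169.8 and 179 CPM against 142, 177, 147 and 158 CPM, a log2 difference of 0.44 (SE 0.17, unadjusted p 0.0221, adjusted p 0.99). Its counterpart in condensin I, Ncapg, was at -0.01 (SE 0.13), while Ncaph was at 0.24 (SE 0.17), Ncapd2 at 0.12 (SE 0.18), and the shared ATPases Smc2 and Smc4 at 0.28 (SE 0.14) and 0.16 (SE 0.13). Without the 3 libraries of fewest detected genes Top2a was at 0.19 and Ncapg2 at 0.11. Ncapg2 was at 0.25 without CD11c+ replicate 2 alone and at 0.53 without CD11c+ replicate 3 alone. The difference between the 2 condensins was not tested.

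**Figure D5:**
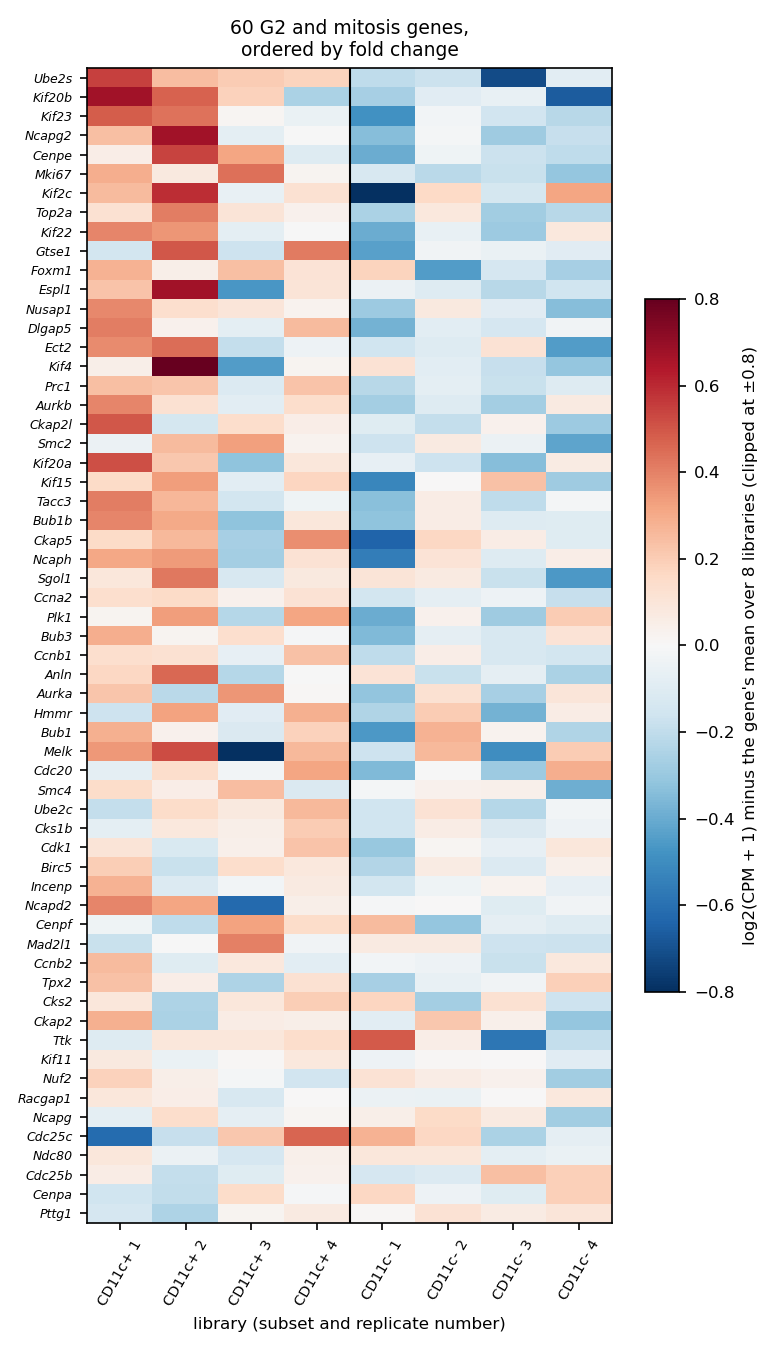
Deviation of each of the 60 members from its own mean over the 8 libraries, on the log2(CPM + 1) scale with colours clipped at ±0.8, with members in rows by falling log2 difference and libraries in columns. CD11c+ replicates 1 and 2 are high (median deviation 0.18 and 0.14) and CD11c- replicate 1 is low (-0.16), while CD11c+ replicate 3 lies near the overall mean (-0.02).

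Other mitotic genes, 79 tested of 81 listed, had 59 above 0 and 20 below, with 0 called and a median of 0.15. In 6 the unadjusted p was under 0.05, all higher (7.59%, beside 2.43% of all genes). In 4 all CD11c+ libraries lay above all CD11c- libraries, beside 1.6% of all genes, and in 0 all lay below, beside 1.85%. Cdca2, which directs a phosphatase to chromatin, averaged 134 CPM ± 24.6 against 98.2 ± 6.89 (log2 difference 0.44, SE 0.16, adjusted p 0.99). Its CD11c+ libraries, from 111 to 163 CPM, lay above its CD11c- libraries, from 92.3 to 108 CPM. Tubb5, a beta-tubulin, was at 4226 CPM ± 169 against 3784 ± 256 (log2 difference 0.16, SE 0.07, adjusted p 0.991 in edgeR). It did not overlap either, though its lowest CD11c+ library (4075 CPM) lay just above its highest CD11c- library (4070 CPM). This list and the next ones were, like the members, set with earlier results known.

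Lists of upstream regulators had medians of 0.01 to 0.10. The first list held the MuvB complex, B-Myb, pocket proteins, E2F factors with their partners, NF-Y subunits and Foxm1, which is also a member. Of its 23 tested genes, 14 were above 0 and 9 below. In 1 the unadjusted p was under 0.05, 0 were called and the median was 0.05. That one was Rb1, the retinoblastoma pocket protein, at 23.5 CPM ± 9.22 against 14.1 ± 2.86 (log2 difference 0.74, SE 0.33, adjusted p 0.991), with all CD11c+ libraries above all CD11c- libraries. Mybl2, which encodes B-MYB, had the lower mean in CD11c+ cells, at 31.4 CPM ± 9.47 against 38.1 ± 8.39 (log2 difference -0.28, SE 0.28, adjusted p 0.991). Of 21 tested CDK inhibitors and mitotic brakes, 12 were above 0 and 9 below, with 1 at an unadjusted p under 0.05, 0 called and a median of 0.01. It was Atr, a kinase of the replication checkpoint, at 29.6 CPM ± 16.2 against 11.4 ± 4.43 (log2 difference 1.37, SE 0.45, adjusted p 0.945). Its CD11c+ libraries were at 46.8, 15, 40 and 16.5 CPM and its CD11c- libraries at 5.01, 15.1, 12.4 and 13.2 CPM, so the high mean came from CD11c+ replicates 1 and 3. Of 10 tested G1 cyclins and kinases, 8 were above 0, 1 had an unadjusted p under 0.05, 0 were called and the median was 0.10. The one was Ccnd3, cyclin D3, at 778 CPM ± 85.8 against 654 ± 60.2 (log2 difference 0.25, SE 0.11, adjusted p 0.991).

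Replication genes, which act in the phase before G2, had a median near that of all genes. Of 45 tested, 27 were above 0 and 18 below, 2 had an unadjusted p under 0.05, 0 were called and the median was 0.03. The S phase score was 7.15, 7.40, 7.25 and 7.40 in CD11c+ and 7.13, 7.39, 7.22 and 7.46 in CD11c- libraries, a mean of 7.30 in both. Same-numbered libraries lay close together on it. Those with an unadjusted p under 0.05 were Pola1 and Rrm2. Pola1, of DNA polymerase alpha, was at 155 CPM ± 10.7 against 124 ± 8.65 (log2 difference 0.32, SE 0.12, adjusted p 0.99). Rrm2, a subunit of ribonucleotide reductase, was at 618 CPM ± 22.9 against 520 ± 65.1 (log2 difference 0.25, SE 0.11, adjusted p 0.991). In these 2 of 45, all CD11c+ libraries lay above all CD11c- libraries, beside 1.6% of all genes. Mcm6, of the replicative helicase, had a log2 difference of -0.10. The mitotic score minus the S phase score was -0.0045 to 0.315 in CD11c+ and -0.262 to -0.0097 in CD11c- libraries. The difference between the lists was not tested.

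Markers of other cells were read beside these values. The dendritic cell list, which includes the sorted Itgax, summed to 336 to 504 CPM in CD11c+ and 64.6 to 161 CPM in CD11c- libraries, with 5 of 12 genes tested. Itgax, the gene of CD11c, made up much of that gap, at 198 to 357 CPM against 4.75 to 17.9 CPM. Monocyte, macrophage and Kupffer cell markers summed to 161 to 446 CPM against 146 to 263 CPM, with 7 of 14 tested. Neutrophil markers summed to 2.27 to 282 CPM against 9.09 to 115 CPM, with 4 of 9 tested. The highest myeloid and neutrophil sums, 446 and 282 CPM, were in CD11c+ replicate 3, which had the lowest mitotic score of the CD11c+ libraries. In that library Lyz2 was at 264, S100a8 at 153 and S100a9 at 103 CPM, their highest values. Cd74 was at 108 CPM there and at 111 CPM in CD11c+ replicate 4. Cd68, at 74 CPM in that library, was at 91.2 CPM in CD11c+ replicate 1. Itgam, at 50.3 CPM in it, was at 71.2 CPM in CD11c- replicate 1. The MHC class II gene H2-Ab1, although MHCII was excluded in the sort, was at 28.7, 39.2, 69.5 and 67.5 CPM in CD11c+ and 18.4, 14.0, 8.07 and 38.5 CPM in CD11c- libraries. Other genes of the same lists were at or near 0: Mpo and Elane had 0 reads in every library, Clec9a reached at most 0.78 CPM and Clec4f at most 1.4 CPM.

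Of the remaining lists, B and plasma cell markers summed to 12.9 to 14.8 CPM in CD11c+ and 10.1 to 15.1 CPM in CD11c- libraries. NK and ILC1 markers summed to 11.5 to 80.2 against 6.30 to 37.2 CPM. Most of that sum was Tyrobp, at 4.36 to 55.1 against 4.63 to 18 CPM, and Fcer1g, at 3.12 to 22.6 against 1.48 to 17.1 CPM, while Klra8 and Klra4 were at 0. Hepatocyte markers summed to 0.195 to 26.3 against 0.371 to 38.9 CPM. Endothelial and stellate cell markers, mostly Pecam1, summed to 17.8 to 28.1 against 24.7 to 39.3 CPM with Lyve1 at 0, and erythroid markers to 0 to 1.92 against 0.559 to 4.32 CPM. The part of these cells in the member differences was not tested.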

How the data were processed

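RNA was column-purified, amplified by a modified SMART-seq2 protocol (10 to 12 cycles), made into Nextera XT libraries and sequenced as 50 bp single ends, per the labels' protocols. The submitters' processing notes name bcl2fastq, TopHat2 2.0.8b, HTSeq and mm9. Neither annotation nor strand setting is given in the sources used here. Each deposited file gives unnormalized counts of reads by symbol, over 22609 genes, and 5 summary rows were left out of all sums. Reads in no gene were 63.1% to 67.1% of uniquely placed reads, and reads placed more than once, 50.3% to 53.6% of all, were not assigned, so genes with near copies carry uncertain levels.

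Counts were tested with edgeR 4.0.16 (filterByExpr, TMM, glmQLFit, glmQLFTest) in R 4.3.3, as CD11c+ minus CD11c-. Adjustment was by Benjamini-Hochberg over 10073 genes, with a threshold of 0.05. The SE is the log2 difference over the root of F. Scores are means of log2(CPM + 1). Levels per kilobase use the union of exons in GENCODE M21. The steps were tested on simulated data. Alternatives included DESeq2 1.42.0 and limma 3.58.1 voom. Replicate pairs differed by more than read sampling (lowest chi-square per degree of freedom 9.43). Library values are given for the 8 members with the highest and 4 with the lowest log2 difference, members with unadjusted p under 0.05 or no overlap, and fixed anchors. The members and lists were chosen with earlier results of these data known.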

Additional observations from a re-analysis of the deposited data

Results flagged for a closer look

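In 3 of 50 groups of 4 libraries examined, 1 library lay so far from the others that its gap, as a share of the range, exceeded Dixon's 95% critical value. Chance alone flags about 1 group in 20. Ube2s was at 4.1 CPM in CD11c+ replicate 1 against 2.96 to 3.14 CPM in the other CD11c+ libraries. Top2a was at 875 CPM in CD11c- replicate 2 against 681 to 708 CPM in the other CD11c- libraries. Prc1 was at 188 CPM in CD11c+ replicate 3 against 237 to 240.1 CPM in the other CD11c+ libraries.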

How the results depend on the processing

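No member was called under any alternative run, and DESeq2 came nearest with Mki67 at an adjusted p of 0.0584. Over all genes the 5 calls became 12 with no filter, 8 with a filter of 5 CPM in 4 libraries (Ube2s then untested), 32 with DESeq2, 19 with limma voom, 11 with the other quasi-dispersion setting of edgeR, 11 without the 3 libraries of fewest detected genes, and 1 to 5 with each library left out. The members higher at an unadjusted p under 0.05 ranged from 3 to 18 with each library left out, beside 1.81% to 2.84% of all genes. They were 3 without those 3 libraries, beside 3.37% of all genes. There the median fell to 0.10 and the score difference to 0.10. With each library left out the median ranged from 0.14 to 0.28 and the score difference from 0.17 to 0.24. Among the 24 members with library values, 3 of 407 values turned sign: Ndc80 to 0.0093 without CD11c+ replicate 3 (range -0.064 to 0.0093 with each library left out), and Kif2c to -0.10 and Cenpa to 0.040 without the 3 libraries. Over all 60 members, 13 turned sign without the 3 libraries, and up to 6 under any other alternative (6 without CD11c+ replicate 1). The cause was not tested.

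With the replicate number as a block, 13 genes and 0 members were called, 12 members had an unadjusted p under 0.05 and the median was 0.22. Deviations of same-numbered libraries correlated at 0.0792, 0.187, 0.128 and 0.192, and each library correlated best with its own number. The labels state no pairing, so the main fit had no block. Whether the numbers pair libraries is not known.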

Other observations

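The genes that followed the mitotic score most closely over the 8 libraries were Gp49a (Pearson r 0.961), Ninj2 (0.961), Ptprk (0.945), Eme2 (0.944) and Timm9 (0.935). These are the highest values among all tested genes that are not members, given as a description, and all 8 libraries share their depth and detection with the score. Gp49a, a receptor of the immunoglobulin family, averaged 37.1 CPM ± 11 against 18.2 ± 3.19 (CD11c+ against CD11c-, log2 difference 1.03, SE 0.28, adjusted p 0.668 in edgeR).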
